A study of Homo sapiens with 2 samples.

Results

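The SMN complex genes were examined in SF-539 cells depleted of FKBP9. The group holds the 10 genes SMN1, SMN2, GEMIN2, GEMIN4, GEMIN5, GEMIN6, GEMIN7, GEMIN8, DDX20 and STRAP, taken by name from the 58735 genes in the deposited table. The group was chosen by a measured value, the summed level of SMN1 and SMN2, which was more than 2-fold higher in the shFKBP9 library, so the values of its members in that comparison are given as a description and were not tested.

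SF-539 is an established human GBM cell line, grown here in DMEM with serum and used at passages 15 to 18. The study compared SF-539-shControl cells, infected with the lentiviral vector pGIPZ-CTRL, with SF-539-shFKBP9 cells, infected with a lentivirus expressing an shRNA against FKBP9, an FK506-binding protein of the endoplasmic reticulum. Both populations were infected and selected with puromycin as stable clones, and which of the FKBP9 shRNAs was sequenced is not given in the sources used here. RNA sequencing was done on 1 library per condition, so the differences below have no replicate check, and a difference between the 2 libraries cannot be told apart from a difference between the conditions.

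The SMN complex is the machine that loads the ring of Sm proteins onto small nuclear RNA (snRNA) in the cytoplasm, a step every cell needs to build the small nuclear ribonucleoproteins (snRNPs) of the spliceosome. SMN, the survival motor neuron protein, is encoded in humans by a pair of near-identical genes, SMN1 and SMN2, and loss of SMN1 causes spinal muscular atrophy. SMN2 differs in how its transcript is spliced, so that much of its message lacks an exon near the end of the coding sequence. The Gemin proteins and STRAP, also called UNRIP, are the partners of SMN in the complex.

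Levels are given as FPKM, fragments on a gene scaled to its length and to the size of the library, as deposited. The table held 18116873 fragments on genes in shControl and 17158514 in shFKBP9, and 1 fragment on a gene of 1 kilobase was worth 0.0552 and 0.0582 FPKM. FKBP9 itself had 49.8 FPKM in shControl and 4.68 FPKM in shFKBP9, or 9.39% of the control level, so the targeted gene was in the direction of its label. The cells are labelled as epithelial glioma cells. VIM, the mesenchymal intermediate filament gene, had 277 and 295 FPKM in shControl and shFKBP9, and CD44 had 48.6 and 55.6 FPKM. Of the 5 epithelial markers only KRT8 reached 1 FPKM, with CDH1 at 0 and 1 fragments and EPCAM at 11 and 14, and the astrocyte gene GFAP was at 0.196 and 0.139 FPKM. Of the 8 glioma and neural markers, VIM, CD44 and NES reached 1 FPKM, and AQP4, an astrocyte water channel gene, had 0 fragments in both libraries. Of the 4 immune and microglia markers PTPRC, AIF1 and CD3E had 0 fragments in both libraries, which allows up to 3 fragments in each as a one-sided 95% limit, and CSF1R had 8.30 and 9.67 FPKM. SNAP25 was the 1 of 3 neuron markers at 1 FPKM, and 0 of the 3 oligodendrocyte and 0 of the 3 endothelial markers reached it.

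SMN1 was the one member of the complex whose level differed by more than 2-fold between the libraries. SMN1 (ENSG00000172062) lies on the plus strand of chromosome 5 of hg38, from 70925030 to 70953942. Its level was 4.05 FPKM in shControl, from 227 fragments, and 12.5 FPKM in shFKBP9, from 667 fragments. That is a 3.10-fold higher level in the shFKBP9 library, with a log2 ratio of 1.61 (95% interval 1.41 to 1.86). Here and below the log2 ratio is that of FPKM in shFKBP9 to shControl with 0.1 added to both, and the interval is the exact Clopper-Pearson interval of the fragments without that addition, which covers counting error only. In RNA of a whole culture, more cells with a transcript and more transcript per cell cannot be told apart.

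SMN2 had nearly the same level in both libraries. SMN2 (ENSG00000205571) lies on the same strand of chromosome 5, from 70049612 to 70078522 in the deposited table. It had 3.60 FPKM in shControl, from 196 fragments, and 3.69 FPKM in shFKBP9, from 191 fragments, with a log2 ratio of 0.04 (95% interval -0.26 to 0.33). The fragments counted on SMN1 were therefore 440 more in shFKBP9, while those on SMN2 were 5 fewer.

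Summed over both genes, SMN had 7.64 FPKM in shControl and 16.2 FPKM in shFKBP9, from 423 and 858 fragments. The log2 ratio of the sum was 1.08 (95% interval 0.92 to 1.26), an interval that includes the 2-fold limit of 1. With 1 added to FPKM in place of 0.1 the log2 ratio of the sum was 0.996, just under that limit. SMN1 held 53.7% of the SMN fragments in shControl (95% Clopper-Pearson interval 48.8 to 58.5%) and 77.7% in shFKBP9 (74.8 to 80.5%). The level of SMN1 was 1.13 times that of SMN2 in shControl and 3.40 times in shFKBP9.

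**Figure D1:**
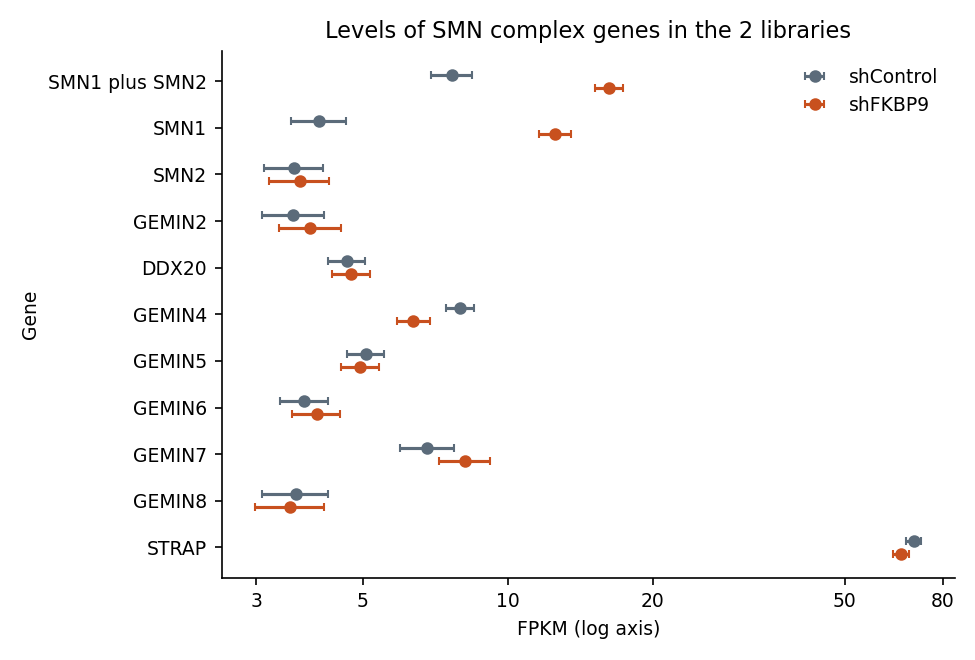
FPKM on a log axis of each SMN complex gene and of the SMN1 plus SMN2 sum, in the shControl library (grey) and the shFKBP9 library (orange), 1 library each, with exact 95% Poisson intervals of the fragments. SMN1 moves from 4.05 to 12.5 FPKM, SMN2 stays between 3.60 and 3.69 FPKM, and STRAP lies far to the right at 69.5 and 65.5 FPKM.

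Of the 10 members, all 10 reached 1 FPKM in at least 1 library, 1 was more than 2-fold higher in shFKBP9 and 0 were more than 2-fold lower. Across the 12741 genes of the table that reached 1 FPKM, 2.02% were more than 2-fold higher and 2.19% more than 2-fold lower, or 4.21% either way. Among the 10346 protein-coding genes that reached it, the shares were 0.213% and 0.193%, or 0.406% either way. Since SMN1 enters the sum that chose the group, its count is not a result about the group. The sum that chose the group was past the 2-fold limit at a log2 ratio of 1.08, SMN1 was the member past it at 1.61, and the highest of the members short of it was GEMIN7 at 0.26. The median log2 ratio was 0.03 over the 10 members and -0.00 over the 8 members other than SMN1 and SMN2, beside -0.02 over all genes that reached 1 FPKM.

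GEMIN2, which binds SMN directly and cradles the Sm proteins, had 3.59 FPKM in shControl and 3.89 FPKM in shFKBP9, from 179 and 184 fragments. Its log2 ratio was 0.11 (95% interval -0.19 to 0.42). The level of SMN, as the sum, was thus 2.13 times that of GEMIN2 in shControl and 4.18 times in shFKBP9. How reads shared by SMN1 and SMN2 were counted is not given, and leaving them out would lower the SMN sum but not GEMIN2. The direct partner of SMN was at nearly the same level in both libraries within counting error.

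DDX20 encodes Gemin3, the DEAD-box helicase of the complex, and GEMIN4 encodes the partner that Gemin3 binds. DDX20 had 4.63 and 4.73 FPKM in shControl and shFKBP9, with a log2 ratio of 0.03 (95% interval -0.15 to 0.21). GEMIN4 had 7.95 FPKM in shControl, from 828 fragments, and 6.36 FPKM in shFKBP9, from 628 fragments. GEMIN4 was the lowest of the members in log2 ratio, at -0.32 (95% interval -0.47 to -0.17), an interval below 0. The helicase and its partner thus had different values, with GEMIN4 lower in shFKBP9 and DDX20 level.

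GEMIN5, the subunit that recognises snRNA, had 5.07 and 4.93 FPKM in shControl and shFKBP9, and its log2 ratio was -0.04 (95% interval -0.22 to 0.14). The gene lies on the long arm of chromosome 5 as SMN1 does, from 154887416 to 154938209, far from the SMN genes.

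GEMIN6, GEMIN7 and GEMIN8 encode a peripheral module, in which Gemin6 and Gemin7 pair through Sm-like folds and Gemin8 joins them to SMN. GEMIN6 had 3.77 and 4.01 FPKM, from 298 and 300 fragments. GEMIN7 had 6.81 and 8.15 FPKM, from 236 and 268 fragments, with a log2 ratio of 0.26 (95% interval 0.00 to 0.52). GEMIN8 had 3.62 and 3.53 FPKM, from 159 and 147 fragments. The intervals of GEMIN6 and GEMIN8 included 0 and that of GEMIN7 lay just above it, with a lower end of 0.002. In TPM, where log2 ratios shift by -0.018, that end lies below 0. In the deposited table GEMIN7 overlaps the same-strand genes PPP1R37 and MARK4, whose fragments were 1147 and 1018, and 634 and 540, in shControl and shFKBP9, and the antisense gene GEMIN7-AS1 with 11 and 6. How fragments in shared stretches were counted is not given in the sources used here.

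STRAP encodes a WD-repeat protein that joins the complex at its periphery and also takes part in TGF-beta receptor signalling. It was by far the most abundant member, with 69.5 FPKM in shControl, from 2783 fragments, and 65.5 FPKM in shFKBP9, from 2487 fragments. Its log2 ratio was -0.09 (95% interval -0.16 to -0.01). The upper end was -0.007, and scaling by the median ratio, -0.017 in log2, takes it above 0. STRAP stood at 9.10 times the summed SMN level in shControl and at 4.03 times in shFKBP9, with the limit on the SMN sum given for GEMIN2.

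**Figure D2:**
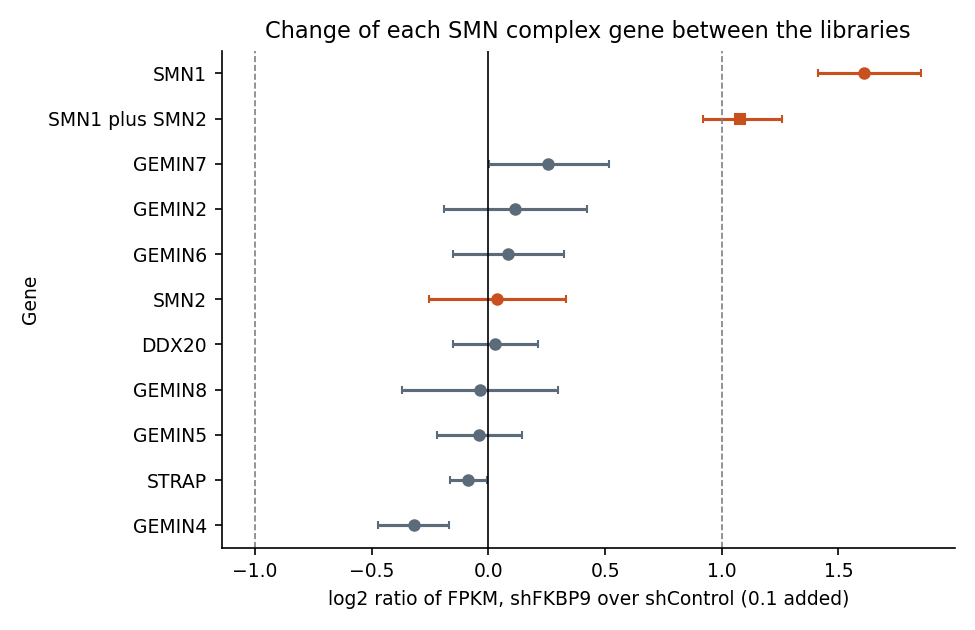
log2 ratio of FPKM in shFKBP9 over shControl, with 0.1 added, for each SMN complex gene (circles) and for the SMN1 plus SMN2 sum (square); bars are exact 95% Clopper-Pearson intervals of the fragments and dashed lines mark 2-fold. SMN1 at 1.61 and the sum at 1.08 lie past the upper line, and the other members, SMN2 included, lie between -0.32 and 0.26.

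The 10 members had between 147 and 2783 fragments in a library, so counting error alone differed widely between them. The interval included 0 for 6 members, lay above 0 for SMN1 and GEMIN7, and lay below 0 for GEMIN4 and STRAP. That of GEMIN7 includes 0 in TPM, and that of STRAP includes 0 with median-ratio scaling. The share of all genes with an interval off 0 was not computed, so this count is no result about the members. By FPKM, 6 members were higher in shFKBP9 and 4 were lower. Of the 12741 genes that reached 1 FPKM, 5951 had a log2 ratio above 0 and 6789 below 0.

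The order of the members by level was led by STRAP in both libraries. In shControl it was followed by GEMIN4, GEMIN7, GEMIN5, DDX20, SMN1, GEMIN6, GEMIN8, SMN2 and GEMIN2, and 7 of the neighbouring pairs had overlapping 95% Poisson intervals. From GEMIN5 down to GEMIN2 no neighbours could be told apart by counting error. In shFKBP9 the order was STRAP, SMN1, GEMIN7, GEMIN4, GEMIN5, DDX20, GEMIN6, GEMIN2, SMN2 and GEMIN8, and SMN1 stood apart from both of its neighbours. SMN1 thus moved from the middle of the order to the place after STRAP, while the median level of the 8 members other than SMN1 and SMN2 was 4.85 FPKM in shControl and 4.83 FPKM in shFKBP9. Over all 10 members the summed level was 113 FPKM in shControl and 117 FPKM in shFKBP9, most of it from STRAP.

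Among the 10306 protein-coding genes with at least 1 FPKM in a library and 50 or more fragments in both together, SMN1 ranked as number 6 from the highest log2 ratio, and 0.155% of these genes were more than 2-fold higher, 0.116% more than 2-fold lower and 0.272% past 2-fold either way. The protein-coding genes next above the SMN sum in log2 ratio over the 2 libraries were SLC7A11, the cystine transporter gene, at 1.14 and the chemokine gene CCL3 at 1.15. The next below were IL1RN, the interleukin-1 receptor antagonist gene, at 1.07 and the linker histone gene HIST1H1C at 1.05. With 2 libraries such a likeness is one number per gene.

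The split of fragments between SMN1 and SMN2 is uncertain, because the genes are near-identical in sequence. Their canonical transcripts in GENCODE release 44 are both 1482 bases long in 9 exons and differ by 2 substitutions, of which 1 lies in the coding sequence of 882 bases and 1 behind it in the last exon. Of the windows of 100 bases in the canonical transcript of SMN1, 85.5% occur unchanged in that of SMN2, and 50.6% of the windows of 300 bases do. Over all annotated transcripts, 76.9% of the windows of 100 bases of SMN1 were found in SMN2 and 82.2% of those of SMN2 in SMN1. A read within such a window is the same for both genes, and how such reads were counted is not given in the sources used here. If they were left out, the levels of SMN1, of SMN2 and of their sum would be too low beside other members. That limit bears on the multiples of GEMIN2 and STRAP and on the order of the members by level. The other 8 members had 0% of their windows in a gene elsewhere. Gene-level FPKM also does not tell transcripts with an exon from those without it, so exon inclusion in SMN2 was not measured here.

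The values of other genes with copies in the same part of 5q13 are given beside those of SMN1 and SMN2. They do not show how shared reads were counted. SERF1A and SERF1B, small proteins of unsettled function next to the SMN genes, share 93.8% and 96.0% of their windows of 100 bases over all annotated transcripts, and 36.3% and 12.1% over the canonical ones, which are 699 and 1907 bases long. SERF1B, the neighbour of SMN2 from 70025247 to 70043113, had 71 fragments in shControl and 18 in shFKBP9, or 1.29 and 0.344 FPKM. Its log2 ratio was -1.64 (95% interval -2.74 to -1.14). SERF1A, the neighbour of SMN1, had 10 and 4 fragments, or 0.168 and 0.0709 FPKM. The SERF1 genes summed had 81 and 22 fragments and a log2 ratio of -1.59 (95% interval -2.56 to -1.12), opposite in sign to that of the SMN sum. With 1 added to FPKM in place of 0.1 the log2 ratio was -0.77 for SERF1B and -0.79 for the SERF1 sum, both short of 2-fold.

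GTF2H2, a subunit gene of the transcription factor TFIIH, and its copies GTF2H2B and GTF2H2C were within counting error as a sum. GTF2H2 had 161 and 191 fragments in shControl and shFKBP9, with a log2 ratio of 0.30 and an interval just above 0 (95% interval 0.01 to 0.63). GTF2H2B had 45 and 42 fragments, and GTF2H2C had 381 and 392. The sum of the 3 genes had a log2 ratio of 0.15 (95% interval -0.02 to 0.31). NAIP, an inhibitor of apoptosis gene next to SMN1, had 8 and 16 fragments, and its log2 ratio of 0.43 (95% interval -0.23 to 2.51) says little at this depth. Of the 3 groups of copies, the SMN pair was thus higher in shFKBP9, the SERF1 pair lower, and the sum of the GTF2H2 group within counting error.

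**Figure D3:**
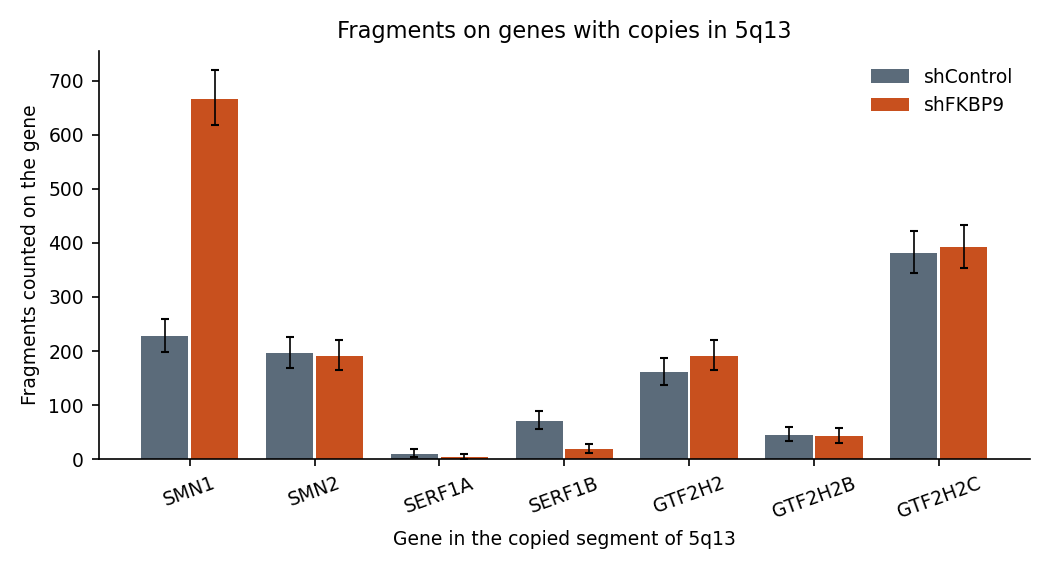
Fragments counted on the listed genes of 5q13 that have copies there, in the shControl library (grey) and the shFKBP9 library (orange); bars show exact 95% Poisson intervals. SMN1 has 227 and 667 fragments and SERF1B 71 and 18, while SMN2 has 196 and 191 and GTF2H2C 381 and 392.

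The list of 5q13 genes was a choice and does not hold every gene of the band. Of its 14 genes outside the copied segment, 10 reached 1 FPKM, with log2 ratios between -0.27 and 0.15 and a median of -0.04. The lowest of these 10 was CENPH, a kinetochore gene, with 14.3 FPKM in shControl and 11.8 FPKM in shFKBP9, and the highest was CDK7, the kinase of TFIIH, with 13.4 and 15.0 FPKM. AK6, an adenylate kinase gene that overlaps the listed gene TAF9 and is not on the list, lay above that range, with 338 and 421 fragments in shControl and shFKBP9 and a log2 ratio of 0.39. With the copies included, 13 of the 20 genes of the list reached 1 FPKM, of which 0 were more than 2-fold higher and only SERF1B was more than 2-fold lower, which it was not with 1 added to FPKM, and their median was -0.03. The highest of those 13 was GTF2H2 at 0.30.

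Genes that share windows with a gene annotated elsewhere were tallied in the same way. These include pseudoautosomal genes, such as AKAP17A, ASMTL and CD99 with 100% of windows shared, which may match their own annotation on chromosome Y. How many such genes there are was not counted, so the shares below are not those of duplicated genes alone. Of the protein-coding genes at 1 FPKM, 67 shared at least 50% of their windows of 100 bases with a gene at another place, and 7 of them were past 2-fold, or 10.4%, with 4.48% higher and 5.97% lower. Of the 10262 genes with under 50% of their windows shared, 0.156% were higher and 0.146% lower, or 0.302% either way. With a minimum of 50 fragments in both libraries together, chosen after seeing the data, 4 of 61 such genes were past 2-fold, or 6.56%, with 1.64% higher and 4.92% lower. These 4 were SMN1, SERF1B and the chorionic gonadotropin genes CGB3 and CGB5, so the 1 higher gene was SMN1 itself, whose value helped choose the group. Without SMN1, 2 of 66 such genes at 1 FPKM were higher and 4 lower, and with 50 fragments 0 of 60 were higher and 3 lower. Below 50% of windows shared and with that minimum, 23 of 10231 genes were past 2-fold, or 0.225%, with 0.137% higher and 0.088% lower. The difference between these shares was not tested, and neither was the part that the counting of shared reads has in the value of SMN1.

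**Figure D4:**
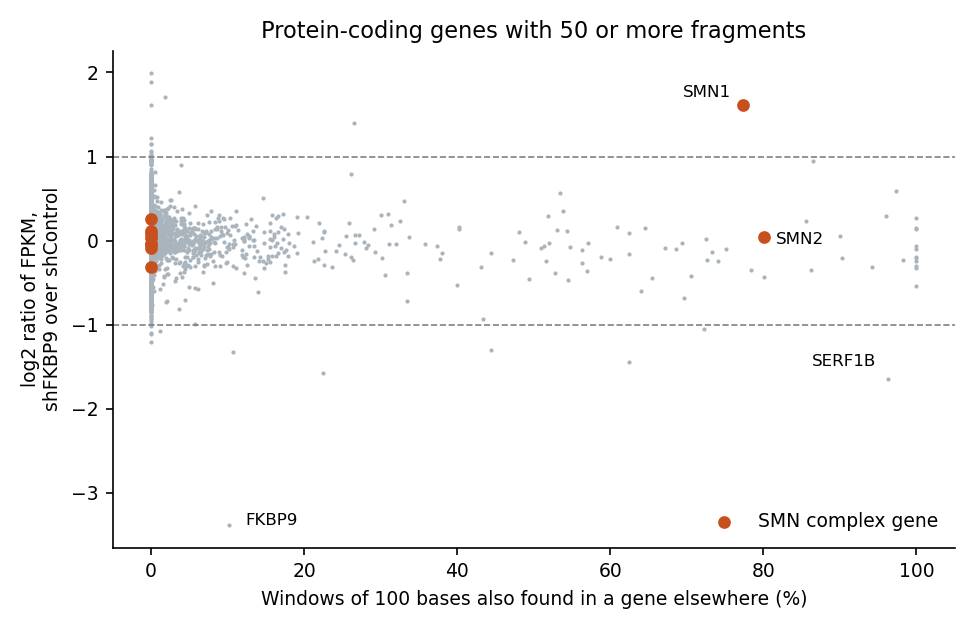
Share of windows of 100 bases that a gene shares with a gene elsewhere, in percent, against the log2 ratio of FPKM in shFKBP9 over shControl, for protein-coding genes with at least 1 FPKM in a library and 50 or more fragments in both together (grey points); SMN complex genes are orange and dashed lines mark 2-fold. SMN1 lies at 77.4% and 1.61, SMN2 slightly to its right at 0.04, and the other 8 members lie at 0% between -0.32 and 0.26.

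The lists of snRNP pathway genes are given by their levels and medians. Beside the 0.406% of protein-coding genes past 2-fold either way, a count of 0 in lists of this size is near the background and is no result about a list. The Sm core proteins form the ring that SMN loads onto snRNA, and the most abundant of their genes was SNRPD2 with 129 and 130 FPKM in shControl and shFKBP9. All 8 reached 1 FPKM, and the median log2 ratio was 0.08. SNRPD3 was the highest, with 41.0 and 46.4 FPKM in shControl and shFKBP9 and a log2 ratio of 0.18. SNRPN, the form best known from neurons, was the lowest, with 62 and 44 fragments and a log2 ratio of -0.37 (95% interval -1.01 to 0.16).

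LSM10 and LSM11 replace part of that ring in the U7 snRNP, which cuts histone pre-mRNA. LSM10 had 31.6 and 30.9 FPKM and LSM11 had 1.83 and 1.43 FPKM in shControl and shFKBP9, with log2 ratios of -0.03 and -0.33.

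PRMT5, the arginine methyltransferase that prepares Sm proteins for SMN, had 23.1 FPKM in shControl and 17.8 FPKM in shFKBP9, with a log2 ratio of -0.37 (95% interval -0.49 to -0.26). It was the lowest of the 5 genes of the Sm methylation complex. The highest was COPRS, which links PRMT5 to histones, with 68.0 and 79.1 FPKM and a log2 ratio of 0.22 (95% interval 0.12 to 0.31). The median of the 5 genes was -0.11.

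The 8 genes for snRNA export, cap and import had log2 ratios between -0.11 and 0.15 and a median of 0.08. NCBP1, of the cap-binding complex, was the lowest, with 10.8 and 10.0 FPKM in shControl and shFKBP9. SNUPN, the import adaptor for the snRNA cap, was the highest, with 5.89 and 6.54 FPKM. The 5 genes for proteins of single snRNPs lay between -0.06 and 0.12, from SNRPA and SNRPC of the U1 snRNP to SNRPB2 of the U2 snRNP, with a median of -0.05.

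The 8 splicing regulators of SMN exon 7, the exon by which SMN1 and SMN2 messages differ, had log2 ratios between -0.15 for HNRNPM and 0.09 for SRSF1, which favours inclusion of the exon, and a median of 0.02. HNRNPA1, which favours skipping, had 196 and 202 FPKM in shControl and shFKBP9. Of the 6 partners and modifiers of SMN, 5 reached 1 FPKM and NCALD had 0 fragments in both libraries. PLS3, an actin-bundling gene known as a modifier of spinal muscular atrophy, was the highest of them, with 15.7 and 18.6 FPKM and a log2 ratio of 0.24 (95% interval 0.13 to 0.36). ZPR1, a zinc finger protein that binds SMN, was the lowest, with 5.86 and 5.35 FPKM and a log2 ratio of -0.13.

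Over these lists without the 5q13 genes, 41 of 42 genes reached 1 FPKM and 0 were past 2-fold, near the background of 0.406%. Their median log2 ratio was 0.01, beside -0.02 over all genes that reached 1 FPKM. Their log2 ratios lay between -0.37 and 0.24.

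**Figure D5:**
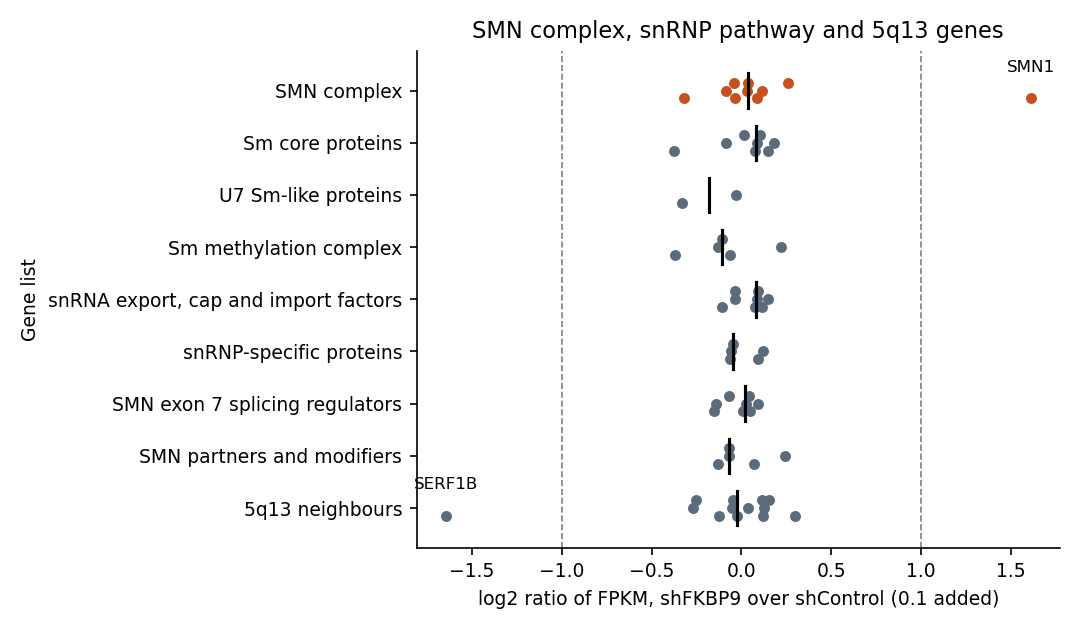
log2 ratio of FPKM in shFKBP9 over shControl, with 0.1 added, for the SMN complex (orange) and for lists of snRNP pathway and 5q13 genes (grey), each point a gene with at least 1 FPKM in a library; black lines are medians and dashed lines mark 2-fold. SMN1 at 1.61 and SERF1B at -1.64 are the genes outside the dashed lines, and with 1 added SERF1B would lie inside them at -0.77.

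Of the pseudogenes named after members of the complex, GEMIN8P4 was the one with fragments, 17 in shControl and 11 in shFKBP9. It shared 0% of its windows of 100 bases with a gene elsewhere in GENCODE release 44, and its log2 ratio of -0.50 had a wide interval of -1.79 to 0.63.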

How the data were processed

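RNA of control and FKBP9-depleted SF-539 cells was sequenced as 1 library per condition. According to the study's methods and the submitters' processing notes, reads with adapters, undetermined bases or low quality were removed, paired reads were aligned to hg38 with HISAT2 2.0.5 and counted per gene with featureCounts 1.5.0-p3. The settings for strand and for reads with several alignments are not given in the sources used here. The authors deposited FPKM with the gene length used.

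Fragments were recovered as FPKM times gene length divided by the smallest step of the library, and 100% of values were whole within 1e-06. Log2 ratios had 0.1 FPKM added, and a gene counted as past 2-fold needed 1 FPKM in either library. Intervals are at 95% (exact Clopper-Pearson for ratios and shares, exact Poisson for levels) and cover counting error only. With 1 library per condition no test was run. Windows of 100 and 300 bases were compared over the transcripts of GENCODE release 44, a later annotation than the table's, between genes at places that do not overlap. For all genes 1 in 8 windows was sampled by hash, and 10329 of the 10346 protein-coding genes at 1 FPKM had a value. Fragment recovery, intervals, fold counts and window shares were tested on simulated data.

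The members and the lists were chosen with earlier results of these data known. Besides FKBP9 and the members, the genes named are those of the lists past 2-fold, the highest and lowest of each list with 50 or more fragments, the genes with copies in 5q13, pseudogenes of members with a fragment, and the 2 genes next to the SMN sum on either side. The overlapping genes, the single markers and HNRNPA1, SNRPD2, SNRPC, NCALD, AK6, CGB3, CGB5, AKAP17A, ASMTL and CD99 were named after their values were seen. Alternatives were other additions to FPKM, median-ratio scaling, TPM and other minimums. Python 3.11.15, numpy 2.4.6, pandas 2.3.3, scipy 1.17.1, numba 0.67.0 and matplotlib 3.10.9 were used.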

Additional observations from a re-analysis of the deposited data

How the results depend on the processing

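The log2 ratio of SMN1 plus SMN2 ranged from 0.996 to 1.09 over the 4 alternatives run (1 or 0.01 added to FPKM, scaling by the median ratio, TPM), and it was under the 2-fold limit with 1 added. That of SMN1 ranged from 1.42 to 1.63 and that of SMN2 from 0.02 to 0.05. For the 10 members, all 40 values under these alternatives lay within the counting interval of the value reported, and 1 member was past 2-fold under each, without a minimum and with 1 FPKM in both libraries too. Counted with SMN1 and SMN2 as their sum, 1 was past 2-fold. With 1 added to FPKM, the log2 ratio of SERF1A plus SERF1B was -0.79 in place of -1.59 and that of SERF1B alone -0.77 in place of -1.64, both then short of 2-fold; the larger addition shrinks ratios of genes near 1 FPKM. With a minimum of 50 fragments, chosen after seeing the data, 6.56% of protein-coding genes with at least 50% of windows shared were past 2-fold in place of 10.4%, and 1.64% in place of 4.48% were higher. The median log2 ratio of all pathway and 5q13 lists, -0.01, was 0.01 with median-ratio scaling and 0.01 without SERF1A and SERF1B, that of the exon 7 regulators, 0.02, was -0.00 in TPM, and that of the 5q13 list, -0.03, was 0.00 without SERF1A and SERF1B, so no direction can be read from these medians. Median-ratio scaling raised the log2 ratio of the SMN sum to 1.09 and TPM lowered it to 1.07. The sum with SMN pseudogenes was not run, because no gene of the table used here bears such a name. No paired analysis was possible because there was 1 library per condition, and no replicate could be left out. The number of fragments limits what can be seen for SERF1A and NAIP, with at most 16 in a library.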
